A study of Saccharomyces cerevisiae with 13 samples.

Results

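Yeast cells supplied with glucose keep a set of genes for life on acetate, lactate or ethanol shut off, and 10 such genes are described here. They encode the enzymes ICL1, MLS1 and MDH2 of the glyoxylate cycle, PCK1 and FBP1 of gluconeogenesis, ACS1 and IDP2 of acetate use and NADPH supply, and the transporters ADY2, JEN1 and SFC1. They were chosen by name, through the probe sets that the platform annotation gives to them, and each had 1 probe set of its own, out of 5656 genes with such a probe set. Of the 10, ICL1, MDH2, PCK1, ACS1, ADY2, JEN1 and IDP2, 7 in all, passed the filter that removed the dimmest 25% of probe sets (mean signal under 37.8) and were tested among 5102 genes. MLS1, FBP1 and SFC1 were dimmer and are given by their values.

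The glyoxylate cycle lets a cell build sugar from acetyl-CoA: isocitrate is split instead of being oxidised, so that carbon is kept. Its product malate becomes oxaloacetate, which gluconeogenesis turns into glucose phosphate. In budding yeast these genes are repressed by glucose through the repressor Mig1, and are switched on through the kinase Snf1 and the activators Cat8, Sip4 and Adr1 when glucose runs out.

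Levels were read on one-colour Affymetrix arrays of total RNA, 13 in all, as signal intensities on a linear scale. There were 3 arrays of cells given spermine, 5 arrays of cells given spermidine and 5 control arrays. Cells of both treated groups carry deletions of SPE3, spermidine synthase, and FMS1, the oxidase that turns spermine into spermidine. The control labels name no genotype, and the series title speaks of polyamine addition to a polyamine-deficient mutant, so all groups are read as that mutant. The labels used here state no dose, time or carbon source. They also do not say whether arrays of a group came from separate cultures, so each p-value reflects only how these arrays scatter, possibly for technical reasons, and the number of arrays limits the precision. Over the 13 arrays SPE3 had signals of 0.570 to 13.8 and FMS1 of 1.10 to 8.10, in control as in treated cells. The background level, the 95th percentile of 19 bacterial and mouse control probe sets, averaged 19.1 on spermine arrays, 18.0 on spermidine arrays and 17.6 on control arrays.

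Controls 2 and 3 stood apart from the other controls in these genes. Both were the highest 2 of all 13 arrays for 6 of the 10 genes, ICL1, MDH2, PCK1, ACS1, ADY2 and JEN1, which held for 8.11% of all 5102 tested genes. The mean of the 7 tested genes, each centred on its own mean over all arrays, stood at log2 1.07 on control 2 and 1.18 on control 3, and between -0.48 and -0.24 on controls 1, 4 and 5. On spermine arrays this mean was 0.37, 0.06 and -0.02, and on spermidine arrays it ran from -0.55 to -0.14. A list of 24 general stress genes was highest on the same arrays, at 1.72 and 1.69 on controls 2 and 3 and 1.14 on spermine 1. On the other 10 arrays it ranged from -1.16 to 0.14. Among spermidine arrays the order of the carbon and stress means differed. Spermidine 4 had the lowest carbon mean (-0.55) and the highest stress mean (-0.42), and spermidine 2 had -0.14 and -1.16. The part of the stress genes' shift in the levels below was not tested, and the results that change without controls 2 and 3 are given in both settings. The choice to leave these arrays out was made with earlier results of these data known. Leaving out the highest arrays of a gene narrows its spread. A call gained, or an adjusted p made smaller, in that setting is therefore a description and no independent support.

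**Figure D1:**
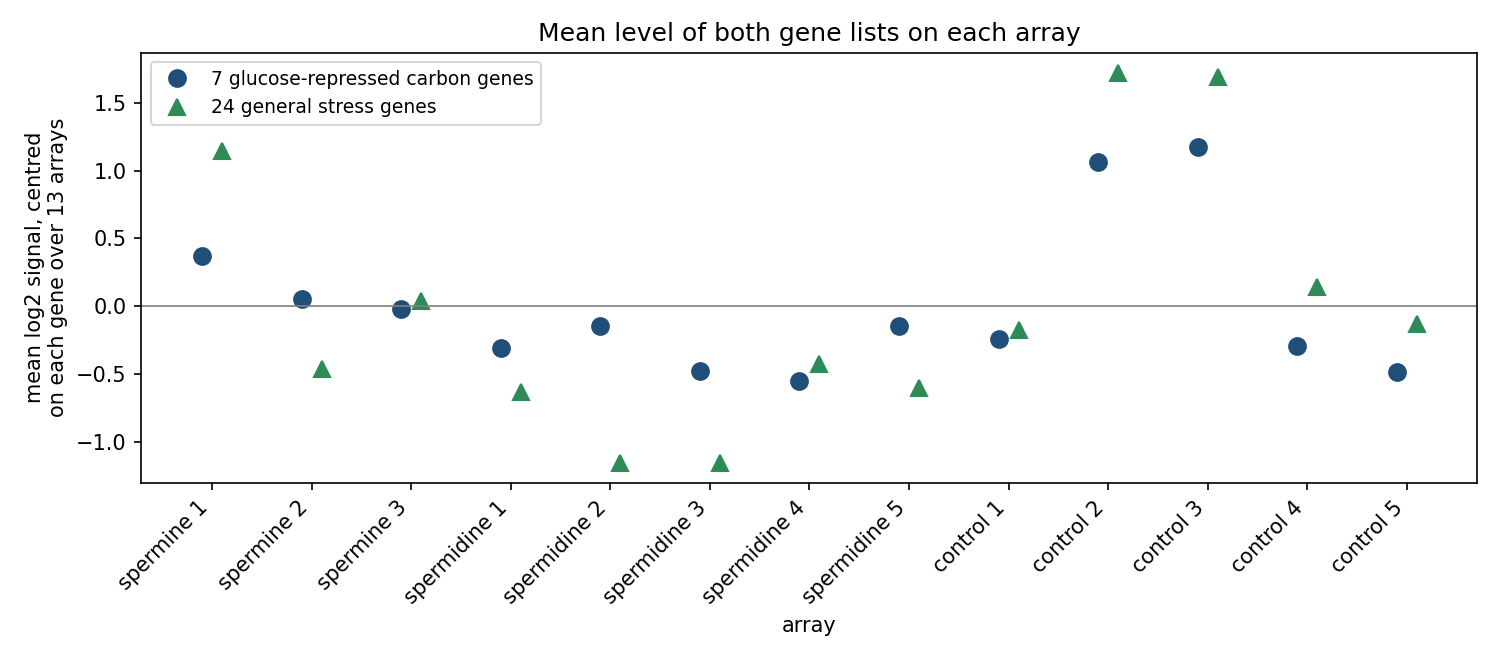
Mean log2 signal, centred on each gene over the 13 arrays, of the 7 tested glucose-repressed carbon genes (circles) and of 24 general stress genes (triangles), for each array. Both lists were highest on controls 2 and 3, at 1.07 and 1.18 for the carbon genes and at 1.72 and 1.69 for the stress genes.

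MDH2, the cytosolic malate dehydrogenase that makes the oxaloacetate drawn into gluconeogenesis, fell with spermidine. Its signals on the 5 spermidine arrays ran from 116 to 162.5, with a median of 126, against 338, 900.2, 869, 301 and 272 on controls 1 to 5. Every spermidine array lay below every control array. The fitted difference was 3.48-fold (log2 -1.80 ± 0.33, SE, limma adjusted p = 0.000748), and without controls 2 and 3 it was 2.26-fold (log2 -1.18 ± 0.19, adjusted p = 0.000647). With spermine the signals were 408, 277 and 253, of which the first 2 lay inside the control range and the last just below it, and the difference from control was log2 -0.64 ± 0.38 (adjusted p = 0.710), or -0.02 ± 0.22 without controls 2 and 3 (adjusted p = 0.991). The direct contrast placed MDH2 higher with spermine than with spermidine, by 2.23-fold (log2 1.16 ± 0.38, 95% interval 0.35 to 1.96, adjusted p = 0.0425), and the 3 spermine arrays all lay above the 5 spermidine arrays. This last call was lost without any single one of spermine 1, spermine 2, spermine 3 and spermidine 1 to 5, the 8 values lying between log2 0.95 and 1.29 with adjusted p between 0.0531 and 0.160. Without controls 2 and 3 it stood at the same log2 value with an SE of 0.19 (adjusted p = 0.000934).

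Of the 7 tested carbon genes 1 was called lower in the contrast of spermidine with control, MDH2, and 0 higher, beside 14.7% and 17.9% of all genes (limma, threshold of 0.05 on the Benjamini-Hochberg adjusted p). At an unadjusted p under 0.05 there were 2, MDH2 and ACS1, beside 42.9% of all genes. Groups did not overlap for 1 of the 7, MDH2, lower with spermidine, beside 9.39% of all genes, and 2 of the 7, ICL1 and IDP2, had a difference above 0, beside 51.7%. The median log2 difference of the 7 was -0.44, beside 0.02 over all 5102 genes. The median was 0.16 without controls 2 and 3, and 1 gene was called lower (MDH2) and 1 higher (ICL1), beside 13.2% and 15.7% of all genes. The same 2 genes were those whose groups then did not overlap, beside 16.3% of all genes lower and 18.5% higher, and those with an unadjusted p under 0.05, beside 40.7%. The sign of the median turned with those arrays left out. The median of the 24 stress genes stood at log2 -1.28 in this contrast, and at -0.56 without controls 2 and 3, and its part in the fall of MDH2 was not tested. In bulk RNA of this kind, fewer cells that use a gene and less of its RNA per cell cannot be told apart.

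**Figure D2:**
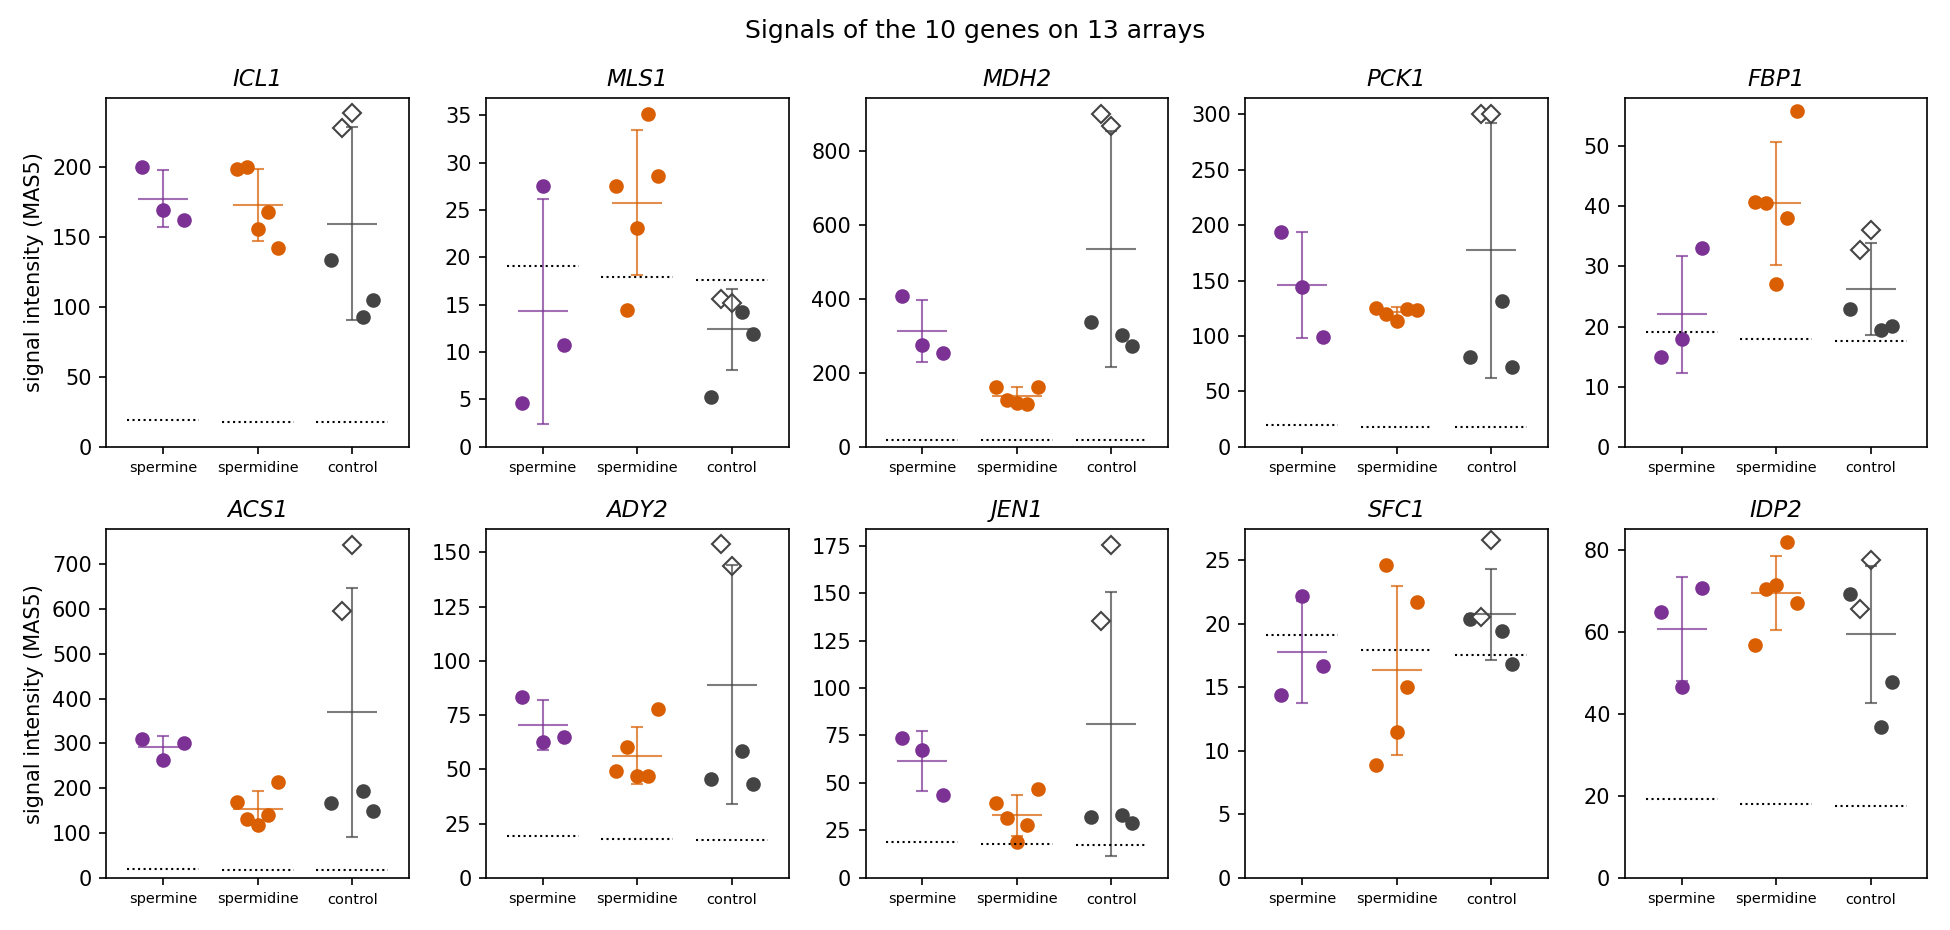
Signal intensity (linear, MAS5) of each of the 10 genes on each array, by group. Points are arrays, open diamonds controls 2 and 3, horizontal bars with whiskers the group mean ± SD, and dotted lines the background level of the group. MDH2 lay between 115.9 and 162.5 on spermidine arrays, below all control arrays, and MLS1 lay under the background line on all 5 controls.

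ICL1, isocitrate lyase, catalyses the step that splits isocitrate and so commits carbon to the cycle. Its signals were 201, 169 and 162.3 with spermine, 199, 201, 156, 168 and 142.5 with spermidine, and 133, 228.5, 239, 93.1 and 105 on controls 1 to 5. The treated arrays lay between the 2 sets of control values, above controls 1, 4 and 5 and below controls 2 and 3. Over all arrays the difference from control was log2 0.22 ± 0.28 with spermine (adjusted p = 0.881) and 0.16 ± 0.24 with spermidine (adjusted p = 0.631). ICL1 rose 1.49-fold with spermidine once controls 2 and 3 were left out (log2 0.58 ± 0.18, adjusted p = 0.0291), while the spermine value of log2 0.63 ± 0.20 did not pass (adjusted p = 0.349). With controls 2 and 3 and spermine 1 kept as a block instead, the spermidine value was log2 0.46 and was not called (adjusted p = 0.0762). The direct contrast gave log2 0.05 with a 95% interval of -0.54 to 0.64.

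MLS1, malate synthase, joins glyoxylate to acetyl-CoA. It was at background in the means of spermine and control arrays. It was above the background of the same array on 1 of 3 spermine, 4 of 5 spermidine and 0 of 5 control arrays. The signals were 4.58, 27.5 and 10.8 with spermine, 27.5, 14.5, 23.1, 35.2 and 28.6 with spermidine, and 5.22, 15.6, 15.2, 14.3 and 11.9 on controls. Its mean with spermidine was at least 1.47-fold above the background level of the controls. Since the controls were at background, no exact difference is given for MLS1.

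PCK1 and FBP1 are the enzymes that separate gluconeogenesis from glycolysis. PCK1, phosphoenolpyruvate carboxykinase, had signals of 194, 144 and 99.3 with spermine, 124.8, 120, 114, 124.6 and 123 with spermidine, and 81.3, 300.2, 301, 132 and 71.8 on controls. The spermidine arrays were close together, at 121 ± 4.67 (SD, n = 5), and lay inside the range of the controls, at 177 ± 115 (SD, n = 5). No contrast called PCK1: log2 -0.12 ± 0.40 with spermine (adjusted p = 0.967), -0.32 ± 0.35 with spermidine (adjusted p = 0.511) and 0.20 ± 0.40 between spermine and spermidine (adjusted p = 0.776, 95% interval -0.67 to 1.06). With controls 2 and 3 left out it stood above 0 against control, at log2 0.53 ± 0.25 with spermine and 0.34 ± 0.22 with spermidine, and was not called (adjusted p = 0.517 and 0.275).

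FBP1, fructose-1,6-bisphosphatase, was low on every array. The signals were 15.0, 17.9 and 33.1 with spermine, 40.8, 40.5, 27.1, 38.2 and 55.9 with spermidine, and 22.8, 32.7, 36.1, 19.4 and 20.1 on controls. All 5 spermidine arrays and all 5 controls were above the background of their own array, and 1 of 3 spermine arrays was. Since FBP1 did not pass the filter, it was fitted only without it, where the value with spermidine was log2 0.72 ± 0.25 (adjusted p = 0.0408), or 0.90 ± 0.29 without controls 2 and 3 (adjusted p = 0.0327), where the groups no longer overlapped. With 2 of the 3 spermine arrays at background, no difference of FBP1 with spermine is given.

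ACS1 makes acetyl-CoA from acetate, and is the isoform that glucose represses. Its signals were 309, 264 and 302 with spermine, 170, 131, 117, 140 and 214 with spermidine, and 166, 595, 741.5, 194.5 and 149 on controls. Every spermine array lay above every spermidine array. The difference between spermine and spermidine was 1.91-fold, log2 0.93 ± 0.45 (95% interval -0.03 to 1.89), and did not pass (adjusted p = 0.156). Without controls 2 and 3, which enter only through the shared spread, the same log2 value had an SE of 0.19 and was called (adjusted p = 0.00331). These were the highest arrays for ACS1, so the narrower spread follows from leaving them out. With spermidine against control the value was log2 -0.99 ± 0.39 (adjusted p = 0.0639), which was called without control 1 (-1.18, adjusted p = 0.0381) and without control 5 (-1.23, adjusted p = 0.0253), and was -0.21 ± 0.19 without controls 2 and 3 (adjusted p = 0.426). With spermine it was -0.06 ± 0.45 (adjusted p = 0.987), or 0.72 ± 0.21 without controls 2 and 3 (adjusted p = 0.291).

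IDP2, the cytosolic NADP-dependent isocitrate dehydrogenase, did not share the high values of controls 2 and 3. It averaged 60.6 ± 12.7 (SD, n = 3) with spermine, 69.5 ± 8.997 (SD, n = 5) with spermidine and 59.3 ± 16.7 (SD, n = 5) in controls. The 3 groups overlapped, and the differences were log2 0.03 ± 0.23 with spermine, 0.27 ± 0.20 with spermidine and -0.24 ± 0.23 between spermine and spermidine (adjusted p = 0.987, 0.329 and 0.511). Leaving out controls 2 and 3, the differences from control were log2 0.16 ± 0.26 with spermine and 0.40 ± 0.23 with spermidine (adjusted p = 0.898 and 0.213).

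Of the transporters, JEN1 carries lactate and pyruvate across the plasma membrane, and its signals were 73.5, 67.4 and 43.5 with spermine, 39.4, 31.7, 18.9, 27.6 and 46.8 with spermidine, and 32.0, 135, 175, 32.9 and 28.9 on controls. On the normalised scale every spermine array was above every spermidine array, with spermine 3 at log2 5.41695 barely above spermidine 5 at 5.41636. By deposited signal spermine 3 lay below spermidine 5. The difference between spermine and spermidine was log2 0.85 ± 0.52 (adjusted p = 0.274, 95% interval -0.27 to 1.97), and without controls 2 and 3 the same value was called with an SE of 0.26 (adjusted p = 0.0285). Against control, JEN1 stood at log2 -0.03 ± 0.52 with spermine and -0.88 ± 0.45 with spermidine (adjusted p = 0.994 and 0.153). With controls 2 and 3 left out these were 0.85 ± 0.29 and 0.00 ± 0.26 (adjusted p = 0.389 and 0.991).

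ADY2, an acetate transporter, had signals of 83.6, 62.6 and 64.9 with spermine, 49.3, 60.4, 47.2, 47.1 and 78.1 with spermidine, and 45.5, 154, 144, 58.4 and 43.2 on controls. Its differences were log2 -0.17 ± 0.38 with spermine, -0.44 ± 0.33 with spermidine and 0.28 ± 0.38 between spermine and spermidine (adjusted p = 0.942, 0.315 and 0.647). All 3 groups overlapped, and controls 2 and 3 were the highest arrays. Leaving these out, ADY2 stood at log2 0.44 ± 0.24 with spermine and 0.16 ± 0.21 with spermidine (adjusted p = 0.595 for each). SFC1, the mitochondrial carrier that exchanges succinate for fumarate, was at background in the means of spermine arrays (17.8 ± 4.02, SD, n = 3) and spermidine arrays (16.4 ± 6.67, SD, n = 5) and near it in controls (20.8 ± 3.57, SD, n = 5). Its signals were above the background of their own array on 1 of 3 spermine, 1 of 5 spermidine and 4 of 5 control arrays, so no difference of SFC1 is given.

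**Figure D3:**
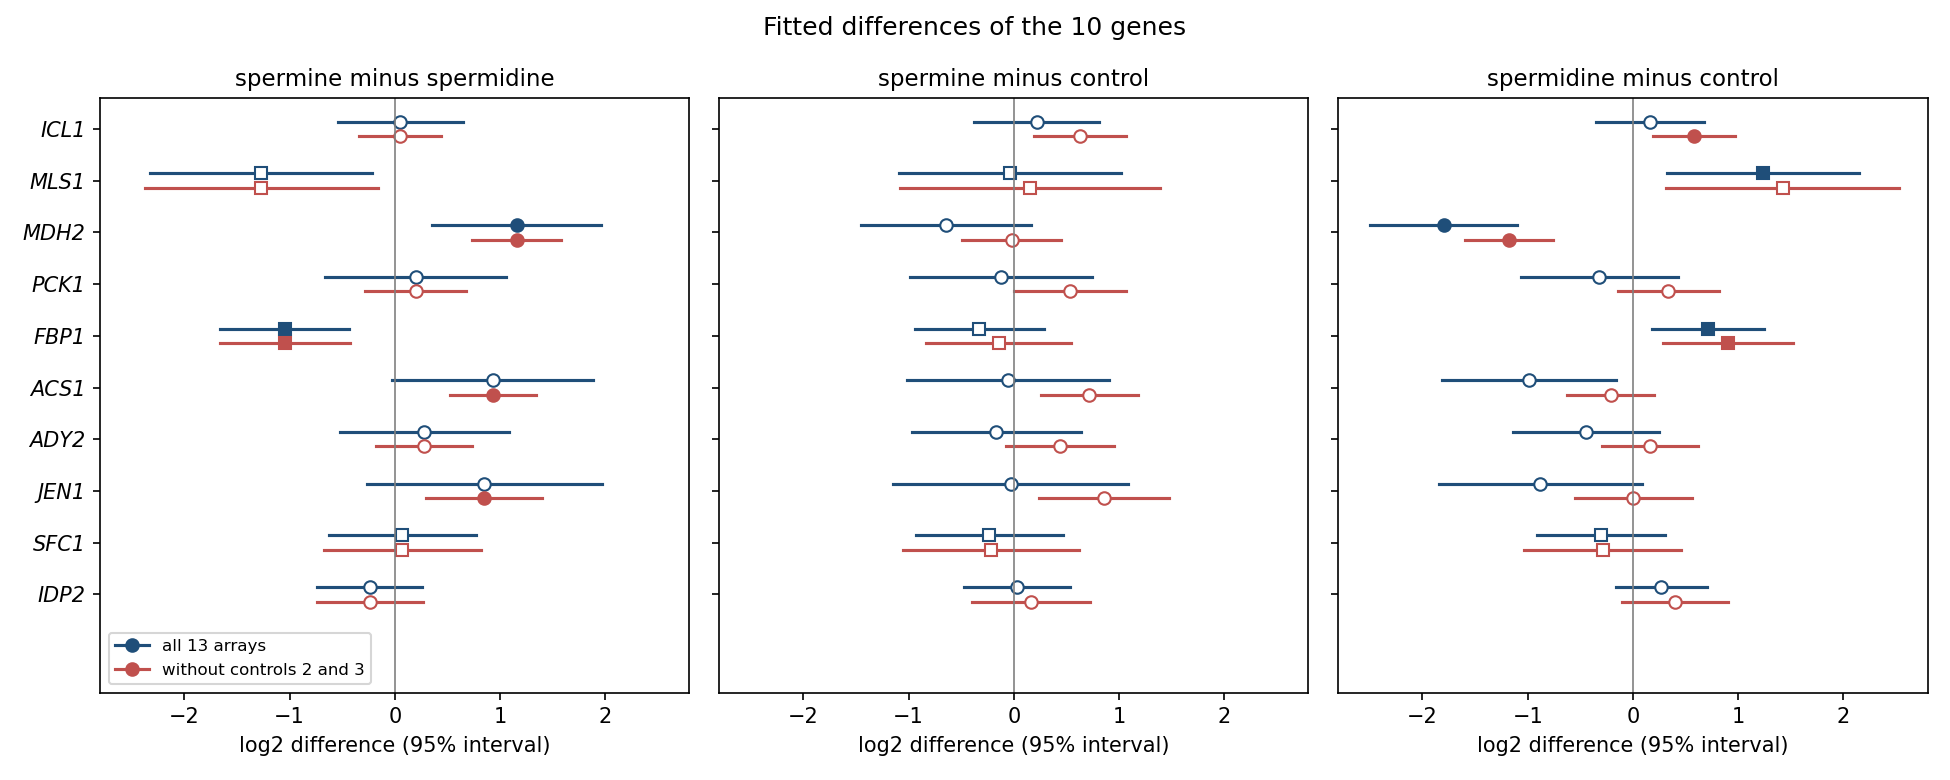
Fitted log2 differences with 95% intervals of the 10 genes in 3 contrasts, over all 13 arrays (blue) and without controls 2 and 3 (red). Circles are genes that passed the filter, squares are MLS1, FBP1 and SFC1, at or near background, from a fit without it, and filled symbols have an adjusted p under 0.05. Squares rest in part on signals at background, and a filled square is not counted as a call. Among the circles MDH2 alone is filled in both settings of a contrast, with spermidine minus control at -1.80 and -1.18.

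With spermine against control, 0 of the 7 tested genes were called by limma and 0 had an unadjusted p under 0.05, beside 0.0196% and 8.53% of all genes. Groups did not overlap for 0 of the 7 in either direction, beside 3.84% of all genes higher and 2.59% lower, and 2 of the 7 had a difference above 0, beside 53.8%. Their median was log2 -0.06, beside 0.02 over all genes. Without controls 2 and 3 the median was 0.53, still with 0 called, beside 0.255% of all genes, and 3 (ICL1, ACS1 and JEN1) had an unadjusted p under 0.05, beside 9.64% of all genes. In that setting the spermine arrays lay above controls 1, 4 and 5 without overlap for 4 of the 7 genes, ICL1, ACS1, ADY2 and JEN1, beside 8.92% of all genes, and below them for 0, beside 9.06%. Spermine 1 was kept there, although its deviations from its group correlated at 0.578 and 0.486 with those of controls 2 and 3. The lowest spermine array of each of these 4 genes was spermine 2 or spermine 3. The part of spermine 1 in the median of 0.53 is not given here.

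Spermine carries an aminopropyl group more than spermidine, and the direct contrast of the treated groups called 20.5% of all genes, 9.41% higher and 11.1% lower with spermine. Of the 7 tested genes 1 was called higher, MDH2, and 0 lower, with a median of log2 0.28, beside 0.01 over all genes. Groups did not overlap for MDH2, ACS1 and JEN1, 3 of 7, all higher with spermine, beside 12.8% of all genes, and 0 were lower without overlap, beside 14.8%. For JEN1 this was close to a tie, log2 5.41695 on spermine 3 against 5.41636 on spermidine 5, and its deposited signals overlapped. At an unadjusted p under 0.05 there was 1, MDH2, beside 34.4% of all genes, and 6 of the 7 had a difference above 0, beside 50.7%. Without controls 2 and 3, MDH2, ACS1 and JEN1 were called, beside 11.2% of all genes, and the same 3 had an unadjusted p under 0.05, beside 37.7%. Over all arrays the 95% intervals of the other 6 genes held 0, so for these a difference between the compounds was not shown in that setting. Their upper ends lay at log2 0.64 for ICL1, 1.06 for PCK1, 1.89 for ACS1, 1.08 for ADY2, 1.97 for JEN1 and 0.26 for IDP2. The contrasts of spermine and of spermidine with control share the same 5 controls.

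By group mean, 5 of the tested genes, MDH2, ACS1, JEN1, PCK1 and ADY2, had the order spermidine lowest, spermine between and control highest on the log2 scale. Without controls 2 and 3 the difference of spermine from control was above 0 for ACS1, JEN1, PCK1 and ADY2, at log2 0.72, 0.85, 0.53 and 0.44, and none of these was called. The difference of spermidine from control was then above 0 for PCK1, ADY2 and JEN1 (log2 0.34, 0.16 and 0.005), so spermidine was no longer lowest for these. It stayed below 0 for MDH2 and ACS1, at log2 -1.18 and -0.21. Among neighbours in the order over all arrays, spermine and spermidine passed the limma test for MDH2. That call was lost without any 1 treated array and with the replicate block (adjusted p = 0.176). No other neighbouring pair passed over all arrays. Without controls 2 and 3 spermine and spermidine passed for ACS1 and JEN1 as well. ICL1 and IDP2 had other orders, and over all arrays their neighbours did not pass.

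The tested genes did not all vary together. Over 13 arrays, the 6 pairs among JEN1, ACS1, ADY2 and PCK1 had Pearson correlations between 0.822 and 0.961, and over the 11 arrays without controls 2 and 3 between 0.391 and 0.859. IDP2 correlated at -0.19 with MDH2 and 0.51 with ICL1 over 13 arrays. The genes most like the mean of the 7, by Pearson r over 13 arrays, were YAK1, a stress-related kinase gene (0.949), POT1, the thiolase of peroxisomal fatty acid oxidation (0.947), YML053C (0.945), ENT5 (0.944), TDA1 (0.944) and PRM10 (0.944). JEN1, ACS1 and ADY2 themselves, which are part of that mean, ranked 1, 2 and 3 of 5102, and IDP2 ranked 1951. With controls 2 and 3 left out, the correlations of these 6 genes from outside the set ran from 0.690 for ENT5, then at rank 106, to 0.857 for PRM10, at rank 7, and YAK1 stood at rank 42. In that setting JEN1 had 0.920, ACS1 0.874, ADY2 0.817 and IDP2 -0.07. Points in these correlations share the scaling of their array, and none carries a test.

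Several of the 10 genes have relatives that glucose does not repress or that work in another compartment, and the fall of MDH2 was set beside these. MDH1, the mitochondrial malate dehydrogenase, fell with spermidine (log2 -0.86, adjusted p = 0.0320), with signals of 1394 ± 331 (SD, n = 5) with spermidine and 2567 ± 817 (SD, n = 5) in controls, and lost this call without controls 2 and 3 (-0.58, adjusted p = 0.183). MDH3, the peroxisomal form, had log2 0.23 ± 0.13 (adjusted p = 0.196). ACS2, the acetyl-CoA synthetase that is active on glucose, had -0.21 ± 0.11 (adjusted p = 0.170), ICL2, a mitochondrial relative of ICL1 that uses methylisocitrate, 0.67 ± 0.30 (adjusted p = 0.0971), and IDP1 and IDP3, the mitochondrial and peroxisomal forms, 0.07 ± 0.20 and -0.42 ± 0.30 (adjusted p = 0.829 and 0.296).

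The relatives of ADY2 did change. ATO3 fell to 374 ± 135 (SD, n = 5) with spermidine, against 926 ± 93.8 (SD, n = 5) in controls, which is 2.65-fold (log2 -1.41 ± 0.23, adjusted p = 0.000369) and held without controls 2 and 3 (-1.44, adjusted p = 0.00207). With spermine ATO3 averaged 1211 ± 125.4 (SD, n = 3), and was 3.50-fold higher than with spermidine (log2 1.81 ± 0.27, adjusted p = 0.000307). ATO2 fell with spermidine (log2 -1.94, adjusted p = 0.0163) and lost the call without controls 2 and 3 (-0.84, adjusted p = 0.0610).

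**Figure D4:**
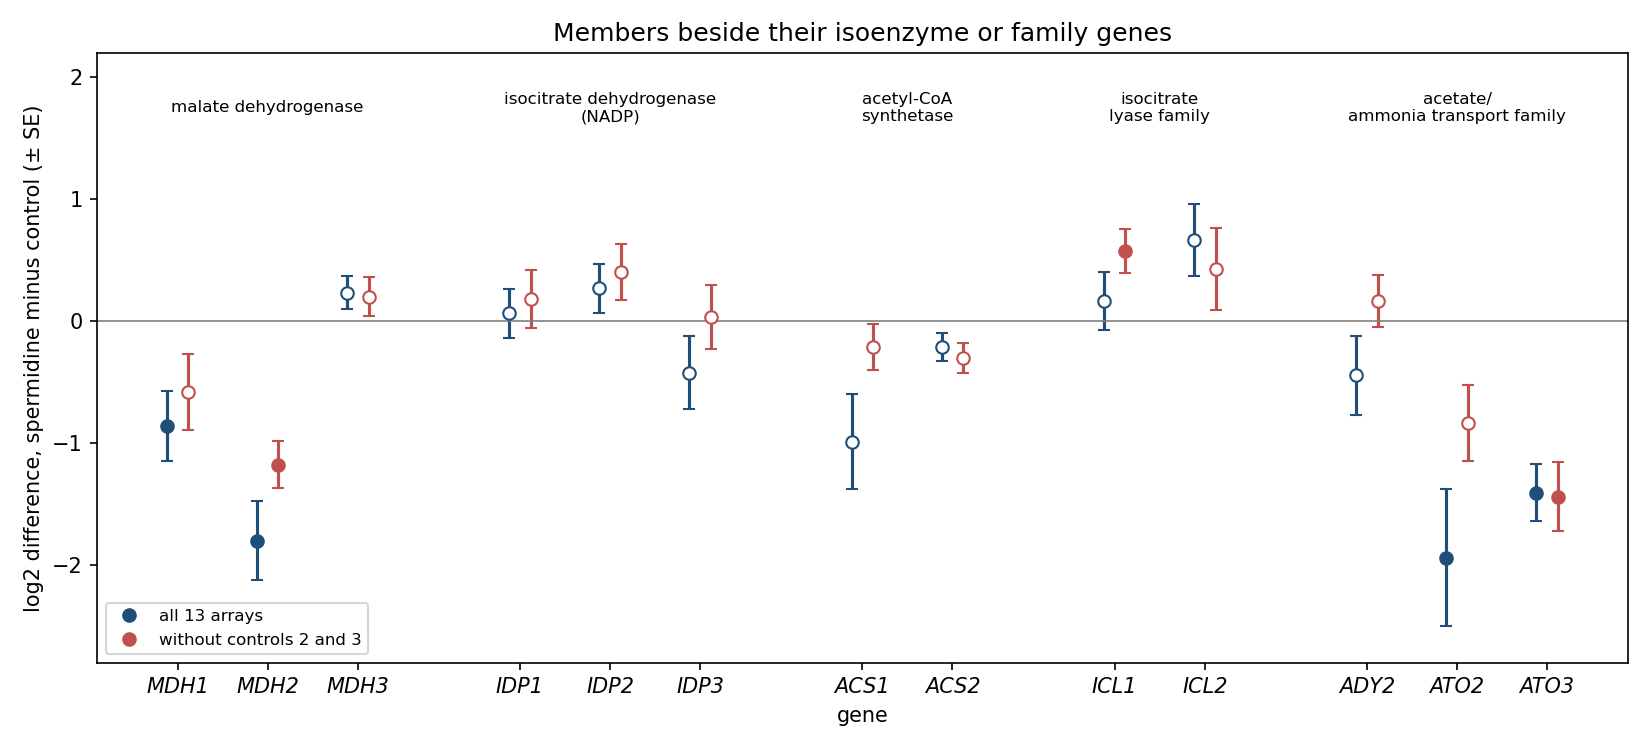
Log2 difference with spermidine minus control, ± SE, of MDH2, IDP2, ACS1, ICL1 and ADY2 beside genes of the same enzyme or transporter family, over all 13 arrays (blue) and without controls 2 and 3 (red). Filled symbols have an adjusted p under 0.05, and those filled in both settings are MDH2 (-1.80 and -1.18) and ATO3 (-1.41 and -1.44).

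Companion lists of the pathway were then read with spermidine, beside a median over all genes of log2 0.02 and a share of called genes of 32.6% in either direction. Of all genes 17.9% were called higher and 14.7% lower, and without controls 2 and 3 these shares were 15.7% and 13.2%. They apply to each list that follows. Of 20 other enzymes of the cycle, acetate use and gluconeogenesis 18 were tested, 2 were higher and 2 lower, with a median of log2 -0.07. CIT2, the peroxisomal citrate synthase of the cycle, rose by log2 0.94 ± 0.33 (adjusted p = 0.0441) and AGX1, which makes glycine from glyoxylate, by 0.74 ± 0.21 (adjusted p = 0.0142). Those that fell were MDH1 and CIT1, the mitochondrial citrate synthase, at log2 -0.86 and -0.77. Leaving out controls 2 and 3, 3 were higher (CIT2, AGX1 and FBP26) and 0 lower, with CIT1 at log2 -0.58 (adjusted p = 0.110).

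Of 20 regulators, 18 were tested, 2 were higher and 4 lower (median log2 -0.08), and without controls 2 and 3 the counts were also 2 and 4, with 5 genes called in both settings. There NRG1 lost its call and HXK2, the hexokinase that takes part in glucose repression, gained one (log2 -0.45, adjusted p = 0.0243). MIG1, the glucose repressor, fell to 58.4 ± 12.1 (SD, n = 5) with spermidine, against 114 ± 16.8 (SD, n = 5) in controls (log2 -0.95 ± 0.17, adjusted p = 0.000781), and every spermidine array was below every control. HAP4, the activator subunit for respiratory genes, fell 3.39-fold (log2 -1.76 ± 0.35, adjusted p = 0.00149), and 2.85-fold without controls 2 and 3 (adjusted p = 0.0135). Of the repressor pair NRG1 and NRG2, NRG2 rose to 440 ± 99.9 (SD, n = 5), against 181 ± 39.7 (SD, n = 5) in controls (log2 1.28 ± 0.18, adjusted p = 0.000106), while NRG1 fell (log2 -1.26, adjusted p = 0.0142) and without controls 2 and 3 stood at -0.78 (adjusted p = 0.106). GAL83, a targeting subunit of the Snf1 kinase, rose 2.26-fold (log2 1.18 ± 0.17, adjusted p = 0.000114), and MIG2 fell (log2 -0.94). SNF1 itself had -0.48 ± 0.22 (adjusted p = 0.114) and ADR1 -0.11 ± 0.27 (adjusted p = 0.784), and CAT8 and SIP4 did not pass the filter.

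The GID ubiquitin ligase removes FBP1, PCK1, MDH2 and ICL1 proteins when glucose returns, and of 9 of its genes 6 were tested. VID24, its substrate receptor, fell to 407 ± 51.3 (SD, n = 5) with spermidine, against 1143 ± 298 (SD, n = 5) in controls (log2 -1.46 ± 0.19, adjusted p = 5.09e-05). It averaged 979 ± 170 (SD, n = 3) with spermine, 2.42-fold above spermidine (log2 1.27 ± 0.22, adjusted p = 0.000867). The other 5 did not pass, with a list median of log2 -0.07, and leaving out controls 2 and 3 added 1 higher call, UBC8, its ubiquitin-conjugating enzyme (log2 0.76, adjusted p = 0.0171).

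Of a list of 14 genes, mostly carriers and dehydrogenases for lactate, glycerol and carboxylates, 13 were tested, 4 rose and 4 fell (median log2 -0.42). CTP1, the mitochondrial citrate carrier, rose 8.12-fold to 1605 ± 312 (SD, n = 5) with spermidine, against 187 ± 21.4 (SD, n = 5) in controls (log2 3.02 ± 0.15, adjusted p = 3.78e-09), and stood at 286 ± 43.2 (SD, n = 3) with spermine. ODC2 and ODC1, carriers of oxodicarboxylates, rose 3.45 and 2.65-fold, and OAC1, the oxaloacetate carrier, 1.86-fold. DIC1, the dicarboxylate carrier, fell (log2 -0.90), as did GUT2, the mitochondrial glycerol phosphate dehydrogenase (log2 -1.79), beside ATO2 and ATO3 above. Leaving out controls 2 and 3, 5 were higher and 3 lower, beside 15.7% and 13.2% of all genes, and 7 of them were called in both settings. The list also holds REG2, a regulatory subunit of the Glc7 phosphatase and no carrier, which was the call gained there (log2 1.01, adjusted p = 0.0191). In the 24 general stress genes 11 fell and 0 rose, with TKL2 at log2 -3.30 and CTT1 at -3.21. Leaving out controls 2 and 3, 8 fell, among them CTT1 (log2 -2.23, adjusted p = 0.00606), and TKL2 lost its call (log2 -1.76, adjusted p = 0.0525).

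With spermine against control 0 genes of any of these lists were called, beside 0.0196% of all genes. Their medians lay between log2 -0.24 and 0.27, beside 0.02 over all genes. Again 0 were called without controls 2 and 3, beside 0.255% of all genes. The median of the stress list turned from log2 -0.24 over all arrays to 0.29, and that of the ADH2 and peroxisomal list from -0.19 to 0.20. Those of the GID list and of the other enzymes turned as well, from -0.14 to 0.12 and from -0.05 to 0.07. The median moved from 0.12 to 0.39 for the carriers list, from 0.27 to 0.43 for the carnitine list and from -0.07 to -0.09 for the regulators. The direct contrast called 9.41% of all genes higher and 11.1% lower with spermine, and 11.2% and 13.1% without controls 2 and 3. Of the 18 other enzymes it called 2, both higher with spermine, a share near that of all genes. These were MAE1, the malic enzyme (log2 1.63 ± 0.41, adjusted p = 0.0110), and PYC2, a pyruvate carboxylase (0.88 ± 0.16, adjusted p = 0.00130). Leaving out controls 2 and 3, CIT2 and FBP26 were called in addition, both lower with spermine (log2 -1.12 and -0.58, adjusted p = 0.0397 and 0.0315). Among regulators 3 were higher (HAP4, MIG2 and MIG1 at log2 1.31, 0.97 and 0.70) and 2 lower (NRG2 and GAL83 at -1.70 and -1.32), and among the carriers and dehydrogenases 3 were higher (ATO3, GUT2 and DIC1) and 3 lower (CTP1, ODC1 and ODC2). Of the 24 stress genes 6 were higher with spermine than with spermidine and 0 lower, with a median of log2 0.90. Leaving out controls 2 and 3, the log2 values stayed as they were and 10 stress genes were called higher, and HXK2 (0.41, adjusted p = 0.0410), ATO2 (1.23, adjusted p = 0.0123) and UBC8 (-0.85, adjusted p = 0.0105) were called as well.

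**Figure D5:**
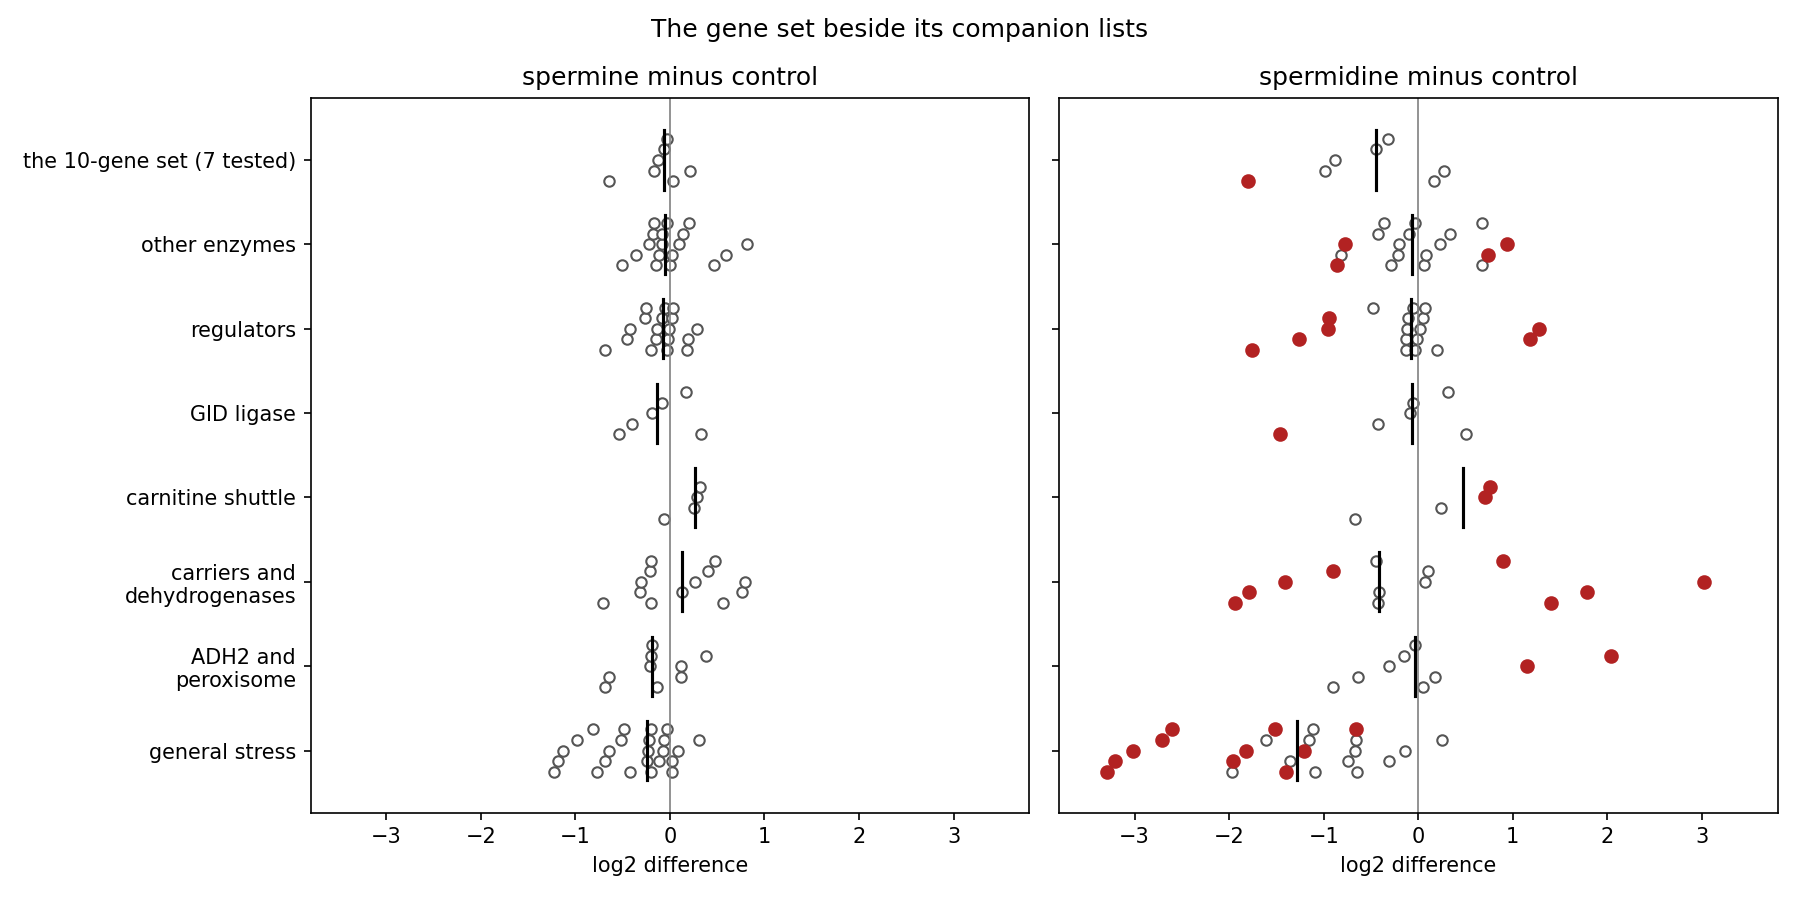
Log2 differences of the 7 tested genes of the set and of the companion lists, spermine minus control (left) and spermidine minus control (right). Each point is a gene, filled red where the adjusted p is under 0.05, and the black bar is the list's median. With spermidine the set had 1 filled point, MDH2 at -1.80, and with spermine 0.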

How the data were processed

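Values are the authors' deposited MAS5 signal intensities, on a linear scale, from Affymetrix yeast arrays. MAS5 is named per the submitters' processing notes, and those notes as used here give no version. The 9335 probe sets had array medians between 124.9 and 161.5. Of these, 60 were controls, 6504 were paired with 1 gene by the platform annotation, 328 with several and 2443 with none. The log2 signals were quantile normalised with no pseudocount, the brightest probe set was kept per gene, and the dimmest 25% of probe sets (mean signal under 37.8) were left out. All 13 arrays were fitted together in R 4.3.3 by limma 3.58.1, the variance prior following intensity, and with Benjamini-Hochberg adjustment over all 5102 genes at 0.05. Tables and plots used Python 3.11.15, pandas 2.3.3 and matplotlib 3.10.9.

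The 10 genes are named in every contrast. From the companion lists other than stress, all genes called over all arrays are named, also where these exceed a planned limit of 4 per contrast. From the stress list the 2 called genes with the largest absolute log2 difference are named for spermidine against control. The genes beyond that limit, SNF1, ADR1, family genes and genes named because a call changed without controls 2 and 3 were chosen after their values were seen. The members and lists were chosen with earlier results of these data known, including the choice to leave out controls 2 and 3. The arrays were not paired by replicate number in the main fit. Over 11 same-numbered pairs the correlation of deviations ran from -0.57 to 0.20, with 1 over 0.1. These values cannot show whether same-numbered arrays shared a culture or day, which the labels do not state. On simulated data with 5102 genes, the spermidine against control fit recovered 28.4% of genes changed by log2 0.5, 80.6% at 1 and 100% at 2. For spermine against control these shares were 14.9%, 58.2% and 95.5%, and for spermine against spermidine 14.9%, 71.6% and 97%. Of the simulated calls 7.33%, 5.08% and 4.69% were false, in the same order of contrasts. For each contrast 67, 67 and 66 of the 5102 genes were changed, by log2 0.5, 1 and 2. In the data 32.6%, 0.0196% and 20.5% of genes were called. Recovery under the Benjamini-Hochberg adjustment depends on how many genes change. The simulated shares therefore need not hold for these contrasts, and for spermine against control, with 1 gene called, they can be too high. The shares were not computed apart for genes with a spread as wide as that of ACS1 or JEN1. With spermidine against control these 2 genes had an SE of 0.39 and 0.45. Alternatives were other scalings, pseudocount 16, other filters, only 2 groups, no trend, blocks, mean of probe sets and left-out arrays. Protein and promoter sequences were not used here.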

Additional observations from a re-analysis of the deposited data

Results flagged for a closer look

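MLS1 on control 1 lay far below the other controls, at a log2 value of 2.26, while the other 4 controls lay between 3.68 and 3.88. The gap was 0.875 of the range of the group. The deposited signal was 5.22, below the background of the array. Of 20 gene and group combinations tested in this way 1 stood out, and chance gives about 1 in 20.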

How the results depend on the processing

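For spermidine against control, 2 of the 7 tested genes were called without controls 2 and 3, and 2 without controls 2 and 3 and spermine 1 (in both, MDH2 lower and ICL1 higher), beside 1 over all arrays. With those 3 arrays as a block ICL1 was not called. Of all genes 28.9% were called without controls 2 and 3, beside 32.6% over all arrays. Leaving out 1 array at a time gave 1 to 2 called genes of the set and 1457 to 1656 of all genes, and MDH2 kept its call throughout, at log2 -1.996 to -1.56. With the replicate block MDH2 also kept it (adjusted p = 0.00262). For spermine against control, 0 genes of the set were called under every alternative, and the 1 gene called among all genes became 2 with the replicate block, 13 without controls 2 and 3, 17 with controls 2 and 3 and spermine 1 as a block, and 0 to 4 with 1 array left out. For spermine against spermidine, the 1047 calls among all genes became 622 with the replicate block and 720 to 1080 with 1 array left out. In that contrast the set had 2 called genes when only the 2 groups were fitted, 0 with the replicate block (MDH2 at log2 0.90, adjusted p = 0.176), 3 without controls 2 and 3, 2 without controls 2 and 3 and spermine 1, and 0 to 1 with 1 array left out. Of all genes 24.3% were called in this contrast without controls 2 and 3, beside 20.5% over all arrays. Shares of all genes are not given here for the fit of only 2 groups, nor without controls 2 and 3 and spermine 1. The counts of the set in those settings therefore say nothing particular to it. The cause of the changes in calls was not tested. No called value changed sign. Over all alternatives, the values of single genes kept their side of the threshold in 167 of 171 cases for spermidine against control, in 171 for spermine against control and in 158 for spermine against spermidine. MLS1, FBP1 and SFC1 lie near background, which limits their values.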

Other observations

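Genes of peroxisomal fatty acid oxidation and of the carnitine shuttle, which pass acetyl units to the glyoxylate cycle, were read with spermidine. Of 14 genes of the first list 9 were tested, 2 rose and 0 fell (median log2 -0.04), beside 17.9% of all genes called higher, a share near that of the list. SPS19, the peroxisomal dienoyl-CoA reductase, rose 4.10-fold to a signal of 263 ± 107 (SD, n = 5) with spermidine, against 61.6 ± 16.02 (SD, n = 5) in controls (log2 2.04 ± 0.24, limma adjusted p = 2.58e-05). PEX11, a peroxisome division gene, rose 2.22-fold (adjusted p = 0.000318). Both also stood lower with spermine than with spermidine, at log2 -2.23 and -1.03, and both calls against control held without controls 2 and 3 (log2 2.19 and 1.29). ADH2, the glucose-repressed alcohol dehydrogenase, had log2 -0.31 ± 0.21 (adjusted p = 0.285). Of 5 carnitine shuttle genes 4 were tested, and the carnitine acetyltransferases YAT1 and YAT2 rose with spermidine, by log2 0.71 ± 0.19 and 0.75 ± 0.26 (adjusted p = 0.00912 and 0.0362), 2 of 4, beside the same 17.9% of all genes, with a list median of log2 0.48.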
